A study of Homo sapiens with 60 samples.

Results

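Cholesterol and fatty acids are built from acetyl-CoA by enzymes whose genes are switched on together by the sterol regulatory element binding proteins (SREBPs). Here, 30 genes of this programme were followed in the human astrocytoma cell line 1321N1 under arsenic, cadmium, and mercury. They were taken by symbol from the 62703 genes of the count table, from a list drawn up with earlier results of these data known: 8 genes of the mevalonate pathway, 11 of the sterol branch, 5 for regulators and sterol transport, and 6 for fatty acid synthesis and desaturation. Of the 30 genes, 28 had enough counts to be tested, among 12341 genes tested in all. The other 2 were CYP51A1, which encodes lanosterol demethylase, with a mean of 0.367 counts per library, and EBP, which encodes a sterol isomerase, with a mean of 3.28 counts.

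Cells were treated with 2.55 µM sodium metaarsenite, 2.3 µM cadmium chloride, or 20 µM mercury chloride, or were left non-treated, and were collected after 1.5 h and then at 3, 6, 12, and 24 h. According to the study's methods, the doses were set by equal toxicity, and the metals were given in fresh medium. The methods do not state whether the medium of non-treated cells was also replaced. If it was not, metal and fresh medium cannot be told apart in comparisons with non-treated cells. Each of the 20 groups had 3 libraries of 3′ mRNA sequencing, which counts the 3′ ends of transcripts, and no group carried a genetic change. The labels call the triplicates technical, so the p values below measure the spread between these libraries, which may not cover that between independent cultures. Libraries held 2215276 to 4404609 counts on genes, with overlapping ranges for the 3 metals and non-treated cells. Of 10 astrocyte markers, VIM, SOX9, GJA1, and NES were detected, whereas GFAP, AQP4, ALDH1L1, and S100B were at or near 0, with no library above 3 counts. SLC1A2 and SLC1A3, with means of 0.383 and 3.42 counts per library, also had too few counts to be tested. The summed level of the 10 markers ranged from 3630 to 5509 CPM in non-treated libraries, from 3178 to 5331 with arsenic, from 2964 to 5614 with cadmium, and from 3352 to 5780 with mercury, so the ranges overlapped. Nearly all of this sum was VIM, with a mean of 14480 counts per library, beside 254 for SOX9, 69.3 for GJA1, and 11.4 for NES. The ranges therefore say little about the other markers. Summed markers of neurons stayed at or below 5.49 CPM, those of oligodendrocytes at or below 1.56, those of microglia at or below 2.20, and those of endothelial cells at or below 0.579 in each of the 60 libraries. Among the markers of these 4 cell types, only SYP of the neuron list had enough counts to be tested, with a mean of 3.95 counts per library.

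SREBPs are made as precursors in the membrane of the endoplasmic reticulum, where they are bound by SCAP. When membrane sterols are low, SCAP carries the precursor to the Golgi apparatus, where proteases release the part that enters the nucleus. When sterols are plentiful, INSIG proteins hold SCAP back. SREBF2 encodes the form that acts mainly on cholesterol genes, and SREBF1 the forms that act more on fatty acid genes. In the brain, cholesterol is made locally, since the blood-brain barrier holds back lipoproteins, and astrocytes are a main source.

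SREBPs bind the sterol regulatory element, often next to the CCAAT box of the factor NF-Y and to GC boxes. The 200 bases before the annotated start of 5 genes are shown to let these letters be compared between the SREBP genes, the SREBP-controlled brake INSIG1, and the enzymes MVK and LSS. SREBF2 was shown because its window holds the motif TCACNCCAC, and the other 4 genes were chosen after their values were seen. Capitals mark TCACNCCAC, CCAAT, and their reverse complements. The sequences are those of RefSeq in GRCh38.p14, read 5′ to 3′ on the strand of the gene: SREBF2 at chr22:41832905-41833104 (plus), SREBF1 at chr17:17836987-17837186 (minus), INSIG1 at chr7:155297678-155297877 (plus), MVK at chr12:109573594-109573793 (plus), and LSS at chr21:46228775-46228974 (minus).
SREBF2: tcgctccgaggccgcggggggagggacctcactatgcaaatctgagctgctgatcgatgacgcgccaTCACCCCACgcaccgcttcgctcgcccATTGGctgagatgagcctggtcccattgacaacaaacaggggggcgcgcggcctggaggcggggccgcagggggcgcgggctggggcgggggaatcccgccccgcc
SREBF1: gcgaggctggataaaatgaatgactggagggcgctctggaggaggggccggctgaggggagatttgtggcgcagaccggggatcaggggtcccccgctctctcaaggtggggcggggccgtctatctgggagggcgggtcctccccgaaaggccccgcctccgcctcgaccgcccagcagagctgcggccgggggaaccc
INSIG1: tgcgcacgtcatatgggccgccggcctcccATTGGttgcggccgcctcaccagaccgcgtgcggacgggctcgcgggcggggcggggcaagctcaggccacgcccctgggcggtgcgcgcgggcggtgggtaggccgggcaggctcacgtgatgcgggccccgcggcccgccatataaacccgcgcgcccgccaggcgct
MVK: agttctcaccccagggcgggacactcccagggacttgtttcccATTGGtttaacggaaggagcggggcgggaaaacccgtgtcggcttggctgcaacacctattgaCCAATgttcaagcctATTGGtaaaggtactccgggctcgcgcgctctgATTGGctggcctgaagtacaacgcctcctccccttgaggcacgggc
LSS: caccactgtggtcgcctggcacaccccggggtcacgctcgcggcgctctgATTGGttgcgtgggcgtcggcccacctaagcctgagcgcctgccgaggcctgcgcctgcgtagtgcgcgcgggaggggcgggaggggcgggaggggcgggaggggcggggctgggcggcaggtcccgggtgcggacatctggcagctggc
The MVK window holds CCAAT 4 times in either direction, those of SREBF2, INSIG1, and LSS hold it 1 time each, and that of SREBF1 has no match. Over all promoters of 300 bases (250 before and 50 after the start), 26 of the 30 genes matched an entry by symbol. CCAAT was found on either strand in 21 of these 26 (80.8%), against 39.7% of the 27305 genes with an entry, and the GC box GGGCGG in 25 (96.2%), against 48.3%. TCACNCCAC was found only in SREBF2 among the 26 (3.85%), and in 1.39% of all genes with an entry. The genes with an entry were not limited to those with enough counts to be tested, so these shares compare unlike sets. CCAAT was present in 7 of the 9 genes with an entry that were lower after 24 h of mercury and in 13 of the 15 that were not called. A match is no evidence of binding. Only exact matches to these letters were searched, so a missing match is no evidence that a site is absent.

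The first question was when each metal moved these genes, with non-treated cells of that time as the reference. A gene was called at a Benjamini-Hochberg adjusted p under 0.05 in edgeR's quasi-likelihood test, and the change is given as log2 fold change (LFC). At 1.5 and 3 h, 0 of the 28 genes were called under any metal. At an unadjusted p under 0.05 there were 4 and 3 genes with arsenic, 0 and 4 with cadmium, and 1 and 3 with mercury, and DESeq2 called 0 in each. Across all genes, 0.0648% were called higher and 0.0081% lower after 1.5 h of arsenic, 0.122% and 0.0162% after 3 h of arsenic, 0% and 0% after 1.5 h of cadmium, 0.203% and 0% after 3 h of cadmium, 0.478% and 0.0891% after 1.5 h of mercury, and 1.39% and 0.154% after 3 h of mercury. At 6 h, the only call was a lower MVK with mercury, where 4.49% of all genes were called higher and 2.99% lower. Arsenic (5 genes at an unadjusted p under 0.05) and cadmium (1 gene) gave 0 calls at 6 h in edgeR and DESeq2, beside 0.608% of all genes higher and 0.308% lower with arsenic and 1.6% and 0.446% with cadmium.

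After 12 h of mercury, 9 of the 28 genes were lower and 1 was higher. The lower genes made up 32.1% of those tested, beside 7.16% of all genes lower and 8.89% higher, and the count of lower genes was 5 without non-treated replicate 1 or 2. After 24 h of mercury, 11 were lower and 0 higher, which is 39.3% lower beside 13.9% of all genes lower and 13.9% higher. After 24 h of arsenic, 6 were lower and 0 higher, which is 21.4% lower beside 7.75% of all genes lower and 6.54% higher. After 12 h of arsenic, 0 genes were called, with 6 at an unadjusted p under 0.05, beside 2.37% of all genes higher and 1.74% lower, and DESeq2 called 2 lower. Cadmium gave 1 lower gene at 12 h (5.19% of all genes higher, 2.99% lower), and from 0 to 4 when 1 library was left out, with 4 without cadmium replicate 1. At 24 h of cadmium, 0 genes were called by either tool, with 3 at an unadjusted p under 0.05 (1.56% of all genes higher, 0.632% lower). The fall was uneven: the median LFC of the 28 genes was -0.28 after 24 h of mercury and -0.20 after 24 h of arsenic. With mercury at 24 h, 23 of 28 (82.1%) lay below 0, against 51.7% of all genes. With arsenic at 24 h, 18 of 28 (64.3%) lay below 0, against 49.9% of all genes. The 9 sterol genes tested did not share the fall with arsenic: their median LFC was 0.13, and 2 of 9 lay below 0. In these bulk samples, fewer cells with a transcript and less of it per cell cannot be told apart.

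**Figure D1:**
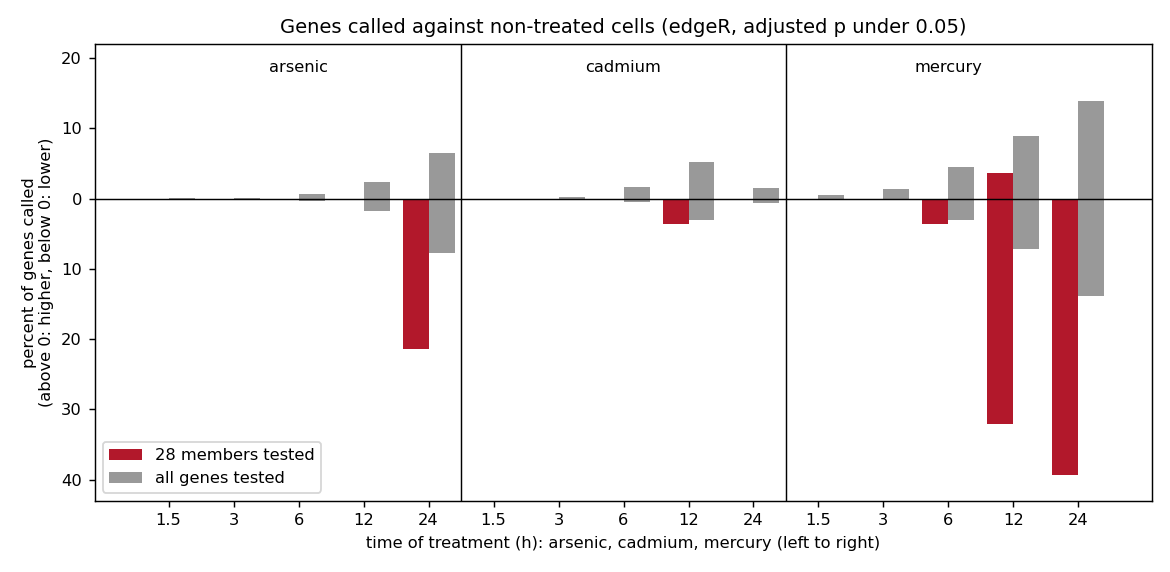
Percent of genes called against non-treated cells collected at that time, by metal and time of treatment in h; red bars are the 28 lipid synthesis genes tested and grey bars all 12341 genes tested, upward for higher and downward for lower. The red bars reach 39.3% lower after 24 h of mercury and 21.4% after 24 h of arsenic, and the only upward red bar is 1 gene after 12 h of mercury.

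**Figure D2:**
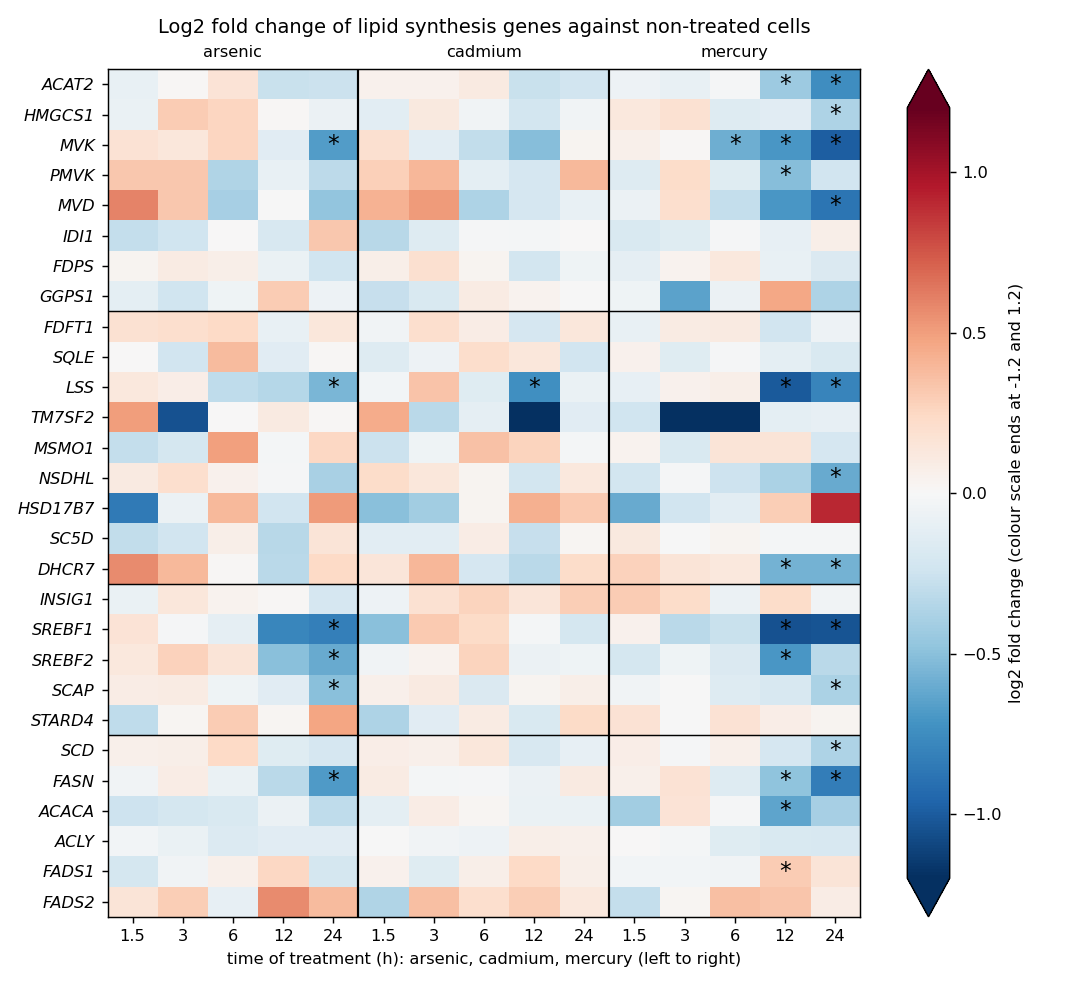
LFC of each of the 28 genes tested (rows, in the order mevalonate, sterol, regulators and transport, fatty acid) against non-treated cells, for 5 time points in h of each metal (columns); asterisks mark an adjusted p under 0.05. Asterisks gather at 12 and 24 h of mercury and 24 h of arsenic. The strong blue cells of TM7SF2 rest on a mean of 9.95 counts per library and were not called.

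Among the regulators, SREBF1 (chr17:17810399-17837002) fell most. In the 3 non-treated libraries at 24 h, it was at 23.2, 25.2, and 25.4 CPM (the count divided by the normalized library size, in the usual unit of that name). With arsenic it was at 12.7, 15.3, and 13.5 CPM, and with mercury at 11.6, 15.2, and 8.92 CPM, so neither group overlapped the non-treated libraries. Cadmium libraries spread from 12.6 to 25.9 CPM and overlapped both. The LFC at 24 h was -1.04 with mercury (SE 0.25, adjusted p = 0.000815), -0.82 with arsenic (SE 0.24, adjusted p = 0.0134), and -0.21 with cadmium (SE 0.23, adjusted p = 0.799). At 12 h, non-treated libraries were at 15.5 to 21.3 CPM, arsenic at 9.47 to 11.8, and mercury at 5.83 to 11.5, with no overlap between either metal and non-treated cells. The LFC was -1.05 with mercury (SE 0.27, adjusted p = 0.0032) and -0.78 with arsenic (SE 0.25, adjusted p = 0.0611), of which only the first was called. Without the lowest mercury library at 12 h (replicate 2), the LFC was -0.79 and the adjusted p 0.0681. Without arsenic replicate 1 at 24 h, the LFC was -0.77 and the adjusted p 0.0584.

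SREBF2 (chr22:41833079-41907307) was called lower with mercury at 12 h and with arsenic at 24 h. At 12 h it was at 34.7, 38.9, and 26.2 CPM in non-treated cells and at 16.4, 22.3, and 22.1 CPM with mercury, with no overlap (LFC -0.70, SE 0.19, adjusted p = 0.00752). At 24 h, mercury libraries were at 35.9, 21.1, and 37.3 CPM, 2 of them within the non-treated range of 35.7 to 44.4, and the LFC of -0.32 was not called (95% interval -0.68 to 0.04). The effect of mercury on SREBF2 was not shown to differ between 12 and 24 h (difference in LFC 0.38, SE 0.27, adjusted p = 0.682). With arsenic, SREBF2 was at 26.8, 25.2, and 25.3 CPM at 24 h, below each non-treated library (LFC -0.61, SE 0.18, adjusted p = 0.0164). The call at 12 h of mercury was lost without mercury replicate 1 (adjusted p = 0.0715) or non-treated replicate 2 (0.0693). The call at 24 h of arsenic was lost without arsenic replicate 2 (0.0629) or 3 (0.0512) or non-treated replicate 3 (0.0917).

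INSIG1 (chr7:155297776-155310235), itself a target of SREBPs, was not called with any metal against non-treated cells collected at that time. At 24 h it was at 149, 136, and 159 CPM in non-treated cells, at 155, 130, and 144 with mercury, and at 116, 131, and 138 with arsenic. Mercury libraries overlapped the non-treated ones (LFC -0.05, 95% interval -0.25 to 0.15), as did those of arsenic (LFC -0.20, 95% interval -0.40 to 0.00). With cadmium, INSIG1 was at 202, 172, and 170 CPM, above each non-treated library, but the LFC of 0.30 (95% interval 0.10 to 0.50) had an adjusted p of 0.107. SCAP, the escort of the precursors, was at 81.8 to 85.1 CPM in non-treated cells at 24 h and at 64.5 ± 10.8 CPM (SD, n = 3) with mercury, each library below them (LFC -0.38, adjusted p = 0.0273), and at 54.8 to 66.3 CPM with arsenic (LFC -0.50, adjusted p = 0.00625). The mercury call of SCAP was lost without mercury replicate 1 (LFC -0.26, adjusted p = 0.214) or 2 (0.0682), without non-treated replicate 1 (0.0747) or 3 (0.0696), and with no filter on low counts (0.0659). STARD4, a carrier of sterols between membranes, was not called under any metal at any time.

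**Figure D3:**
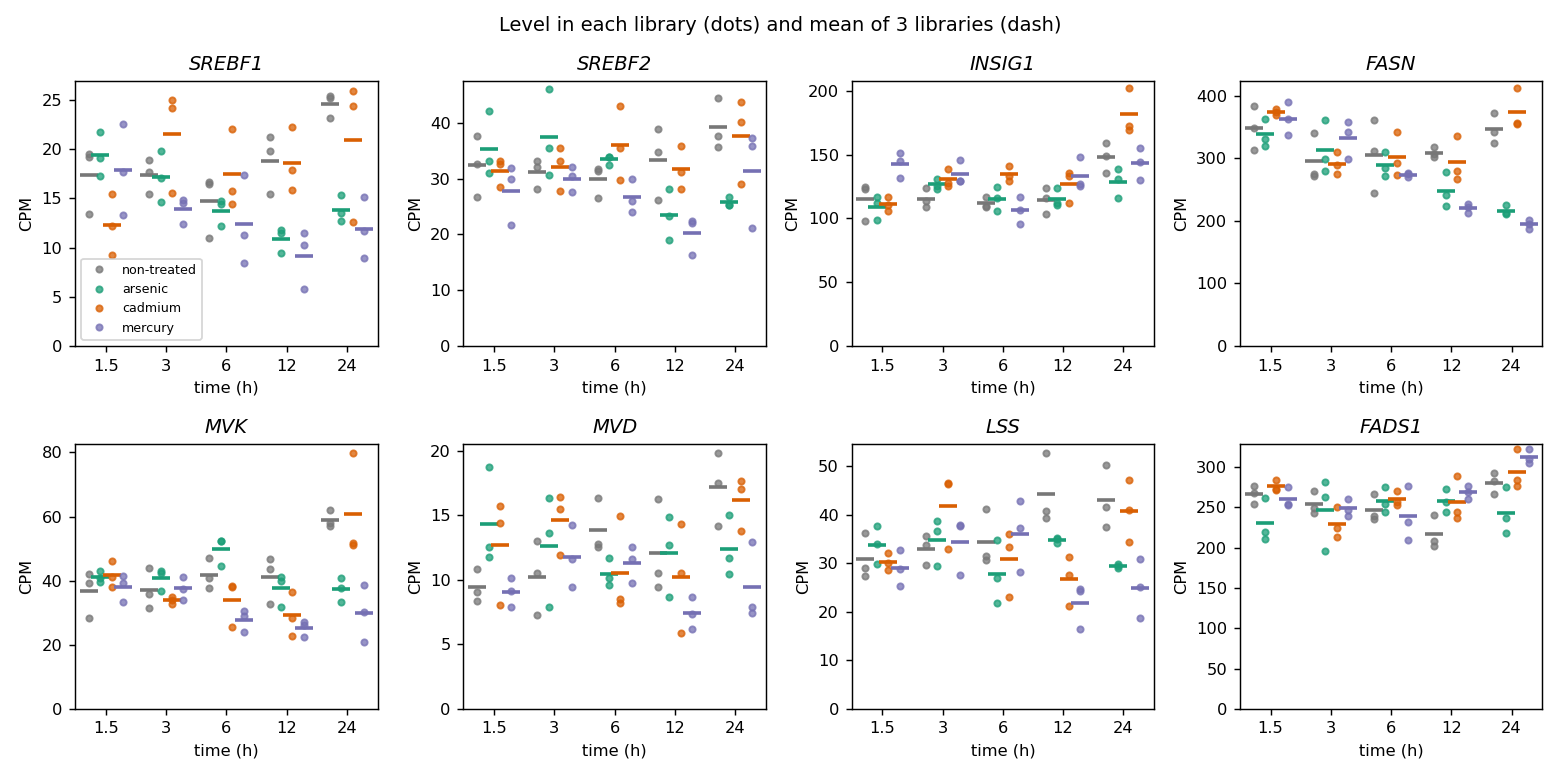
Level in CPM of 8 genes in each of the 60 libraries (dots) with the mean of the 3 libraries of a group (dash), by time in h and treatment. SREBF1, FASN, MVK, and LSS lie lower with mercury at 12 and 24 h, INSIG1 shows overlapping mercury and non-treated dots at 24 h, and the non-treated level of MVK is higher at 24 h than at 1.5 h.

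In the mevalonate pathway, 4 of 8 genes were lower after 24 h of mercury, 3 after 12 h of mercury, and 1 after 24 h of arsenic, with 0 higher. The shares of all genes called lower were 13.9%, 7.16%, and 7.75%. The 1 call with arsenic is 12.5% of the 8 genes and says little about the pathway. MVK (chr12:109573255-109598125), mevalonate kinase, was at 57.9, 62.1, and 57.1 CPM in non-treated cells at 24 h, at 30.2, 20.8, and 38.7 with mercury, and at 40.8, 33.3, and 37.7 with arsenic. Both metals lay below the non-treated range throughout. The LFC was -0.99 with mercury (SE 0.17, adjusted p = 7.95e-06) and -0.67 with arsenic (SE 0.17, adjusted p = 0.00367). Cadmium libraries were at 51.1, 51.8, and 79.8 CPM, around the non-treated ones (LFC 0.03, 95% interval -0.29 to 0.36). With mercury, MVK was already lower at 6 h, at 24.1 to 30.5 against 37.7 to 46.9 CPM (LFC -0.58, SE 0.18, adjusted p = 0.0329), a call that was lost without mercury replicate 2 (LFC -0.48, adjusted p = 0.182) and in other fits that left out 1 library. At 12 h of mercury, the LFC was -0.69 (SE 0.18, adjusted p = 0.00466), and it was at the threshold without non-treated replicate 1 (0.0507).

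MVD (chr16:88651935-88663161), the decarboxylase that yields isopentenyl diphosphate, is a low-count gene with a mean of 39.4 counts per library. At 24 h it was at 19.8, 17.5, and 14.1 CPM in non-treated cells and at 7.87, 7.44, and 12.9 with mercury, with no overlap (LFC -0.87, SE 0.28, adjusted p = 0.0144). The call was lost without mercury replicate 1 (adjusted p = 0.076), mercury replicate 2 (0.095), or non-treated replicate 1 (0.0819). ACAT2, which joins acetyl-CoA units, was at 302 to 335 CPM in non-treated cells at 24 h and at 182 to 207 with mercury (LFC -0.74, SE 0.10, adjusted p = 1.58e-08). It was also lower at 12 h of mercury (LFC -0.44, adjusted p = 0.00102). HMGCS1, which makes HMG-CoA, was lower after 24 h of mercury only (LFC -0.37, adjusted p = 0.00621), a call lost without mercury replicate 2 (LFC -0.26, adjusted p = 0.102). PMVK, the kinase after MVK, was lower after 12 h of mercury only (LFC -0.51, adjusted p = 0.0178), a call lost without mercury replicate 1 (0.117) or non-treated replicate 1 (0.0899) or 2 (0.0756). IDI1, FDPS, and GGPS1, which make the isoprenoid chains, were not called, and their LFCs after 24 h of mercury were 0.07 (95% interval -0.34 to 0.49), -0.17 (-0.36 to 0.01), and -0.37 (-0.79 to 0.06).

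In the sterol branch, 3 of the 9 genes tested were lower after 24 h of mercury, 2 after 12 h of mercury, 1 after 24 h of arsenic, and 1 after 12 h of cadmium. The shares of all genes called lower were 13.9%, 7.16%, 7.75%, and 2.99%. A single call is 11.1% of the 9 genes, so those with arsenic and cadmium say little about the branch. LSS (chr21:46188141-46228824), which closes the sterol rings to lanosterol, was the one gene called with all 3 metals. At 12 h it was at 52.9, 40.8, and 39.3 CPM in non-treated cells, at 16.4, 24.3, and 24.6 with mercury, and at 27.7, 21.1, and 31.3 with cadmium, both below each non-treated library. The LFC was -1.01 with mercury (SE 0.19, adjusted p = 6.33e-05) and -0.74 with cadmium (SE 0.19, adjusted p = 0.00711). Arsenic libraries at 12 h were at 34.2 to 35.2 CPM, also below the non-treated range, with an LFC of -0.35 that was not called (adjusted p = 0.358). At 24 h, non-treated libraries were at 50.2, 37.5, and 41.5 CPM, mercury at 30.8, 25.1, and 18.8, arsenic at 29.1, 29.8, and 29.5, and cadmium at 47.3, 34.4, and 41.0. Mercury (LFC -0.79, SE 0.19, adjusted p = 0.000817) and arsenic (LFC -0.55, SE 0.18, adjusted p = 0.0327) lay below non-treated cells, and cadmium overlapped them (LFC -0.08, 95% interval -0.43 to 0.28). The cadmium call at 12 h was lost without cadmium replicate 2 (adjusted p = 0.103) or non-treated replicate 1 (0.0986). The arsenic call at 24 h was lost without any 1 of the arsenic libraries, which then had adjusted p values of 0.076 to 0.0847, or without non-treated replicate 1 (0.208).

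DHCR7, the enzyme of the last step of one branch to cholesterol, was at 46.9 to 48.2 CPM in non-treated cells at 24 h and at 28.01 to 37.81 with mercury (LFC -0.57, SE 0.18, adjusted p = 0.0147), and it had the same LFC at 12 h (adjusted p = 0.0203). The call at 24 h was lost without mercury replicate 1 (adjusted p = 0.0888) or 3 (0.0544), and that at 12 h without mercury replicate 2 (0.103) or non-treated replicate 1 (0.071) or 2 (0.0939). With arsenic at 24 h, it was at 51.5 to 62.5 CPM, above each non-treated library, with an LFC of 0.24 that was not called (adjusted p = 0.413). NSDHL, which removes methyl groups from sterols, was at 58.3 to 70.8 CPM in non-treated cells and at 40.6 to 47.1 after 24 h of mercury (LFC -0.60, SE 0.15, adjusted p = 0.0015). FDFT1 and SQLE, which commit the pathway to sterols, and MSMO1 and SC5D were not called under any metal. After 24 h of mercury, FDFT1 had an LFC of -0.06 (95% interval -0.25 to 0.13), SQLE of -0.18 (-0.55 to 0.19), MSMO1 of -0.21 (-0.60 to 0.19), and SC5D of -0.02 (-0.39 to 0.34). TM7SF2 and HSD17B7 had means of 9.95 and 25.1 counts per library, which left wide intervals (-1.19 to 1.01 and -0.05 to 1.86 after 24 h of mercury). HSD17B7 shared 31.8% of the 50-base stretches at its annotated 3′ ends with other genes, so its counts are uncertain. For CYP51A1, 64.8% of the bases of its 3′ ends also lay in exons of another gene on the same strand, and reads in such places were left out by the counting, so its low counts say little about its level.

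Of the 6 fatty acid genes, 2 were lower after 24 h of mercury, 2 were lower and 1 was higher after 12 h of mercury, and 1 was lower after 24 h of arsenic. Beside these, 13.9% of all genes were lower after 24 h of mercury and 7.75% after 24 h of arsenic. After 12 h of mercury, 7.16% of all genes were lower and 8.89% higher. Single calls among 6 genes say little about the group. FASN (chr17:82078338-82098294), fatty acid synthase, was at 372, 324, and 342 CPM in non-treated cells at 24 h, at 187, 202, and 195 with mercury, and at 211, 212, and 225 with arsenic. The groups of both metals were tight and lay far below non-treated cells. The LFC was -0.83 with mercury (SE 0.11, adjusted p = 2.49e-09) and -0.68 with arsenic (SE 0.10, adjusted p = 9.1e-07). With cadmium, FASN was at 356, 355, and 412 CPM (LFC 0.11, 95% interval -0.09 to 0.32). At 12 h, it was at 319, 306, and 302 CPM in non-treated cells, at 228, 222, and 213 with mercury (LFC -0.49, SE 0.11, adjusted p = 0.000444), and at 278, 241, and 223 with arsenic (LFC -0.32, adjusted p = 0.0647).

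FADS1 (chr11:61799627-61829318), a desaturase of polyunsaturated fatty acids, was the only one of the 28 genes called higher with a metal than in non-treated cells collected at that time. After 12 h of mercury it was at 276, 260, and 269 CPM, above the non-treated 202, 208, and 241 (LFC 0.31, SE 0.10, adjusted p = 0.0245). The call was lost without mercury replicate 1 or 3 or non-treated replicate 1 or 2, with an adjusted p of up to 0.134, and with no filter on low counts (0.0505). Against the non-treated libraries at 1.5 h, a reference taken up below, the LFC of FADS1 was 0.01 (adjusted p = 0.963). SCD, the desaturase of saturated fatty acids, was lower after 24 h of mercury (LFC -0.37, SE 0.08, adjusted p = 0.00019), and ACACA, which makes malonyl-CoA, was lower after 12 h of mercury (LFC -0.63, SE 0.22, adjusted p = 0.0418). The call of ACACA was lost without mercury replicate 2 (LFC -0.41, adjusted p = 0.323) or 3 (0.0799), or non-treated replicate 1 (0.081) or 2 (0.157). ACLY, which makes cytosolic acetyl-CoA from citrate, and FADS2 were not called.

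The second question was how the genes moved without metal, since the reference itself came from cells kept for different times. In non-treated cells at 24 h against 1.5 h, 4 of the 28 genes were higher and 0 lower, beside 1.84% of all genes higher and 1.45% lower, and the median LFC of the 28 was 0.24 against 0.01 for all genes. An unadjusted p under 0.05 was found for 9 genes. MVK rose from 28.3, 42.2, and 39.4 CPM to the 24 h values given above (LFC 0.69, SE 0.17, adjusted p = 0.0117), and the call was lost without the lowest library, non-treated replicate 1 at 1.5 h (LFC 0.53, adjusted p = 0.16), or replicate 2 at 24 h (0.0636). HMGCS1 (LFC 0.41, adjusted p = 0.0201), INSIG1 (LFC 0.36, adjusted p = 0.0359), and SCD (LFC 0.44, adjusted p = 0.000249) were the others. The call of HMGCS1 was lost without any 1 of 4 of the 6 libraries (replicates 1 and 2 of either time, adjusted p of 0.0594 to 0.245), and that of INSIG1 without any 1 of 5, replicate 3 at 1.5 h being the exception (0.0505 to 0.311). MVD had an LFC of 0.86 (SE 0.29, adjusted p = 0.0809) and SREBF1 of 0.51 (SE 0.24, adjusted p = 0.259), which were not called. FASN was level (LFC -0.01, 95% interval -0.21 to 0.20). At 12 h, SCD alone was higher (LFC 0.26, adjusted p = 0.0487) and 0 were lower (2.34% of all genes higher, 1.75% lower), a call that was lost without any 1 of the 6 libraries. An unadjusted p under 0.05 was found for 8 genes at 12 h. Among those not called were LSS (LFC 0.52, adjusted p = 0.104), DHCR7 (0.51, 0.0959), PMVK (0.40, 0.152), and FADS1 (-0.30, 0.0778). At 3 and 6 h, 0 were called by edgeR and DESeq2, with 1 and 2 genes at an unadjusted p under 0.05 (0% of all genes higher and 0.122% lower at 3 h, 0.211% and 0.276% at 6 h).

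Against the non-treated libraries at 1.5 h, a reference chosen after the values were seen, the picture at 24 h changed. With mercury, 3 genes were then lower, ACAT2 (LFC -0.46, adjusted p = 0.000405), FASN (LFC -0.84, adjusted p = 2.55e-09), and ACLY (LFC -0.27, adjusted p = 0.0244), and INSIG1 was higher (LFC 0.31, adjusted p = 0.0224), beside 10.4% of all genes lower and 11.2% higher. MVD, at -0.87 against the 24 h reference, had an LFC of -0.02 against the 1.5 h reference. MVK went from -0.99 to -0.29, which was not called. SREBF1 went from -1.04 to -0.53, which was not called either. With arsenic, FASN alone was lower (LFC -0.69, adjusted p = 6.45e-07), and HMGCS1, FDFT1, and SCD were higher by 0.34, 0.38, and 0.23 on the log2 scale (7.32% of all genes lower, 6.69% higher). With cadmium, 6 genes were higher and 0 lower, led by MVK (LFC 0.73) and INSIG1 (LFC 0.65, adjusted p = 3.85e-06), beside 3.33% of all genes higher and 2.4% lower. After 12 h of mercury, 6 genes were lower with this reference, among them SREBF1 (LFC -0.92, adjusted p = 0.014), SREBF2 (LFC -0.66, adjusted p = 0.0156), and FASN (LFC -0.66, adjusted p = 2.08e-06), and 0 were higher (6.26% of all genes lower, 7.93% higher). LSS at that time had an LFC of -0.49 and an adjusted p of 0.0954. DHCR7, PMVK, and FADS1, each called against the 12 h reference, had LFCs of -0.06, -0.11, and 0.01 and were not called. ACAT2 (LFC -0.22) and MVK (LFC -0.52) were not called with this reference either. With this reference at 12 h, arsenic gave 1 lower gene and 0 higher (4.53% of all genes lower, 5.16% higher), and cadmium gave 0 calls, with 1 gene at an unadjusted p under 0.05 (3.01% of all genes lower, 4.68% higher). FASN was thus below both references under mercury at 12 and 24 h and under arsenic at 24 h.

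**Figure D4:**
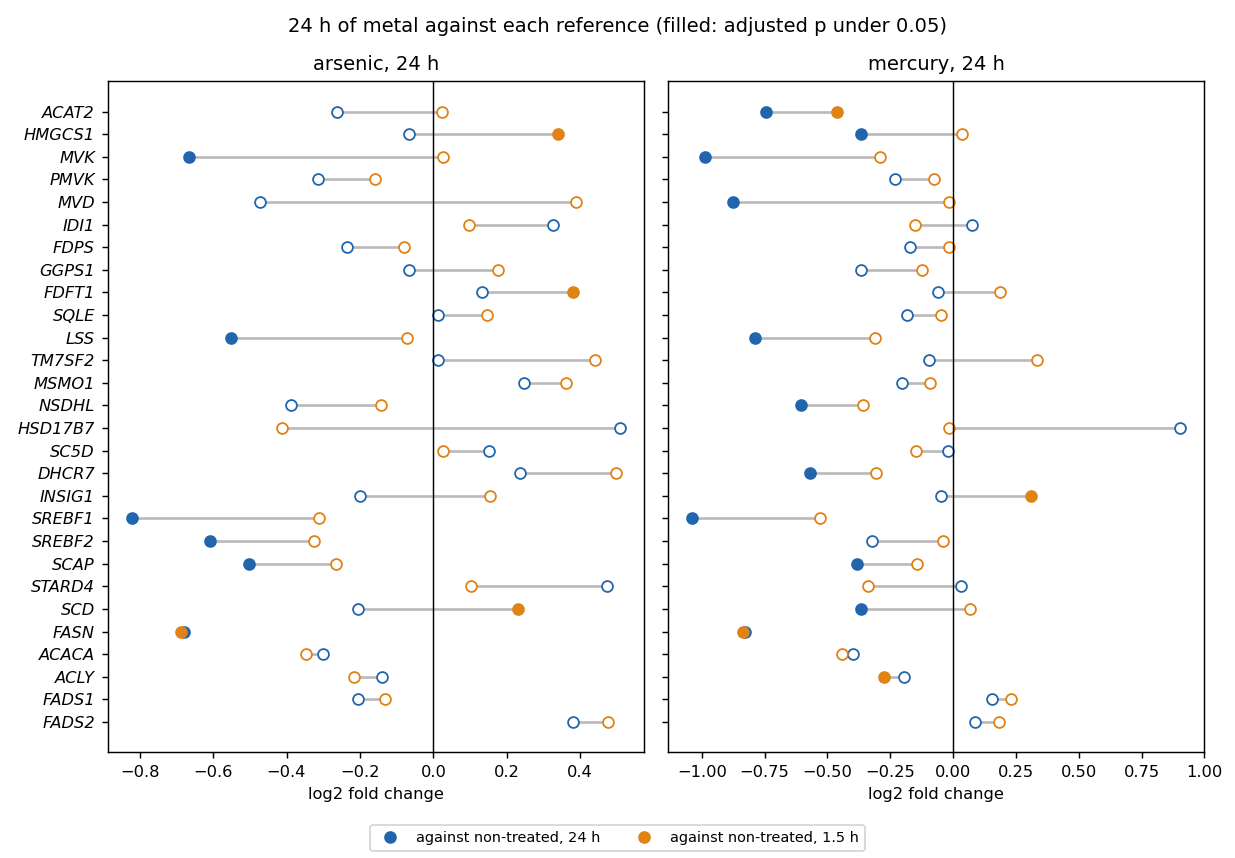
LFC of the 28 genes tested after 24 h of arsenic (left) and mercury (right) against non-treated cells at 24 h (blue) and at 1.5 h (orange), with lines joining the values of a gene and filled circles for an adjusted p under 0.05. The circles of FASN coincide at -0.83 and -0.84 with mercury, whereas those of MVD lie at -0.87 and -0.02.

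The third question was whether the metals differed from each other, tested directly by contrasts that leave out the non-treated groups. The non-treated libraries were still part of the fit that set the scaling and the spread. At 24 h, 14 of the 28 genes were higher with cadmium than with mercury and 0 were lower, beside 9.7% of all genes higher and 10.3% lower. They came from each role: 5 of 8 mevalonate genes, 3 of 9 sterol genes, 3 of 5 regulators and transport genes, and 3 of 6 fatty acid genes. FASN differed by an LFC of 0.94 (SE 0.11, adjusted p = 1.32e-10), MVK by 1.02 (SE 0.17, adjusted p = 8.61e-06), SREBF1 by 0.83 (SE 0.25, adjusted p = 0.0116), DHCR7 by 0.79 (SE 0.18, adjusted p = 0.0008), and INSIG1 by 0.35 (SE 0.10, adjusted p = 0.00839). The count was 8 without cadmium replicate 1 and 9 without cadmium replicate 3 or mercury replicate 2, and 7 in a fit of only the 6 libraries compared. The call of SREBF1 was lost in that fit and without cadmium replicate 1 or 2 or mercury replicate 3 (adjusted p of 0.056 to 0.107), and that of INSIG1 in that fit and without cadmium replicate 1 or mercury replicate 2 (0.0525 to 0.111). At 12 h, SREBF1 (LFC 1.02, adjusted p = 0.019) and FASN (LFC 0.41, adjusted p = 0.0125) were higher with cadmium than with mercury and 0 were lower (1.48% of all genes higher, 1.81% lower). The count of 2 fell to 0 without cadmium replicate 1 and to 1 without cadmium replicate 2 or mercury replicate 2 or 3.

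Between arsenic and cadmium at 24 h, 7 genes were lower with arsenic and 0 higher (5.96% of all genes lower, 4.2% higher). They were FASN (LFC -0.79), MVK (-0.70), PMVK (-0.70), SCAP (-0.57), SREBF2 (-0.56), NSDHL (-0.51), and INSIG1 (-0.50). FASN, PMVK, and INSIG1 kept the call in each of 12 alternatives. SREBF2 lost it in 7 of 12 (adjusted p of up to 0.206), among them each fit without 1 arsenic library, NSDHL in 4 (up to 0.0963), SCAP in 2 (up to 0.127), and MVK in 1, without cadmium replicate 3 (0.107). At 12 h, 0 genes were called, with 8 at an unadjusted p under 0.05 and 1 lower in DESeq2 (1.9% of all genes higher, 3.87% lower). Between arsenic and mercury at 24 h, DHCR7 (LFC 0.81, SE 0.18, adjusted p = 0.00124) and ACAT2 (LFC 0.48, SE 0.10, adjusted p = 0.000429) were higher with arsenic, and FADS1 was lower (LFC -0.36, SE 0.10, adjusted p = 0.00928, and 0.0899 without arsenic replicate 2), beside 4.59% of all genes higher and 6.78% lower. FASN, MVK, and SREBF1 had LFCs of 0.15, 0.32, and 0.22 between these metals, which were not called. At 12 h, LSS was higher with arsenic (LFC 0.66, SE 0.20, adjusted p = 0.0255) and 0 were lower (2.42% of all genes higher, 4.42% lower), a call that was lost without arsenic replicate 1 or 2 or mercury replicate 1.

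Metals also differed at earlier times for 3 of the 28 genes. After 6 h, MVK was at 52.5, 52.4, and 44.7 CPM with arsenic, above each mercury library (24.1 to 30.5; LFC 0.84, SE 0.18, adjusted p = 0.000936), a call kept in each of 12 alternatives. HMGCS1 was at 121 to 130 CPM with arsenic and 84.0 to 109 with mercury (LFC 0.41, SE 0.11, adjusted p = 0.0138), and its call was lost without arsenic replicate 2 or 3 or mercury replicate 2 or 3, with an adjusted p of up to 0.106. These were the calls between arsenic and mercury at 6 h, with 0 lower (1.41% of all genes higher, 3.07% lower). INSIG1 was higher with cadmium than mercury at 6 h, the only call there (LFC 0.34, SE 0.10, adjusted p = 0.0472), which was lost without any 1 of 5 of the 6 libraries, mercury replicate 3 being the exception (1.64% of all genes higher, 2.14% lower). After 1.5 h, INSIG1 was lower with arsenic, at 98.5 to 116 CPM, than with mercury, at 132 to 151 CPM (LFC -0.39, SE 0.10, adjusted p = 0.0305), the only call (0.818% of all genes higher, 0.737% lower), which was lost without arsenic replicate 1 or 2 or mercury replicate 2 or 3. In the other early comparisons 0 of the 28 genes were called in edgeR. Between arsenic and cadmium, 4, 0, and 3 genes at 1.5, 3, and 6 h had an unadjusted p under 0.05 and DESeq2 called 0 (0% of all genes higher and 0% lower at 1.5 h, 0.0162% and 0.122% at 3 h, 0.17% and 1.01% at 6 h). Between arsenic and mercury at 3 h, 0 genes had an unadjusted p under 0.05 and DESeq2 called 0 (0.219% of all genes higher, 1.67% lower). Between cadmium and mercury, 6 and 3 genes at 1.5 and 3 h had an unadjusted p under 0.05 and DESeq2 called 1 lower and 0 (0.122% of all genes higher and 0.535% lower at 1.5 h, 0.494% and 1.29% at 3 h).

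**Figure D5:**
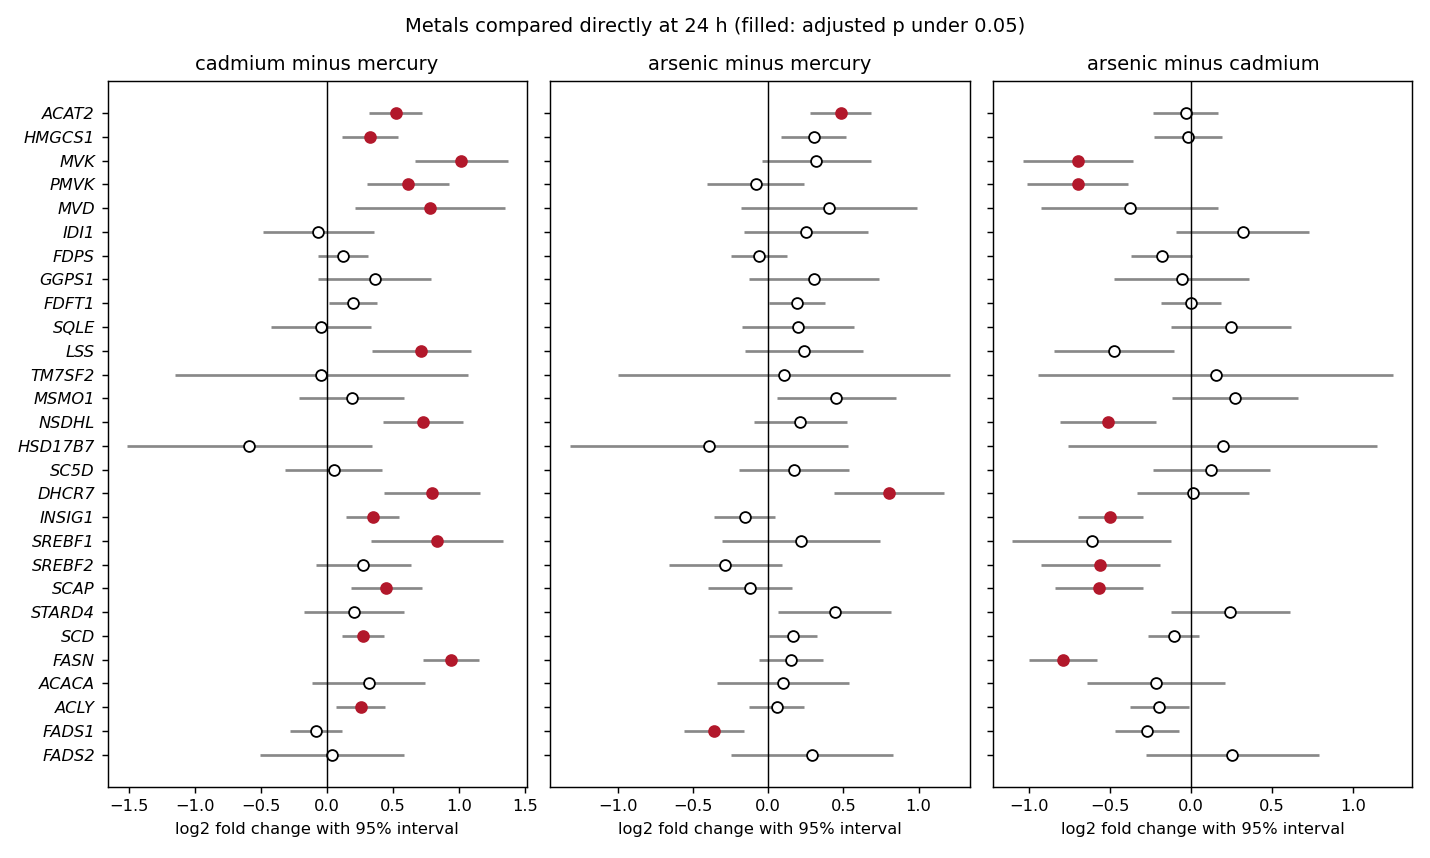
LFC with 95% interval of the 28 genes tested between metals at 24 h, as cadmium minus mercury, arsenic minus mercury, and arsenic minus cadmium (left to right); filled circles have an adjusted p under 0.05. In the left panel 14 filled circles lie above 0, in the middle panel DHCR7 and ACAT2 lie above and FADS1 below 0, and in the right panel 7 filled circles lie below 0.

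The effect of each metal was also compared between time points. From 12 to 24 h, 0 of the 28 genes had a different effect under any metal in edgeR, with 4, 5, and 3 genes at an unadjusted p under 0.05 for arsenic, cadmium, and mercury and 1 lower for arsenic in DESeq2. Of all genes, 0.673% were higher and 0.899% lower for arsenic, 0.081% and 0.3% for cadmium, and 0.3% and 0.324% for mercury. From 6 to 12 h, the effect of mercury on LSS became lower (difference in LFC -1.08, SE 0.27, adjusted p = 0.0178), and it was the only gene called (0.77% of all genes higher, 1.15% lower). The call was lost without non-treated replicate 1 at 12 h (adjusted p = 0.11), replicate 2 or 3 at 6 h, or mercury replicate 1 at either time. For arsenic and cadmium, 0 genes were called from 6 to 12 h in edgeR, with 4 genes each at an unadjusted p under 0.05 and 1 lower for arsenic in DESeq2 (0.13% of all genes higher and 0.178% lower for arsenic, 0.211% and 0.113% for cadmium). The calls at 12 h or 24 h alone, such as those of PMVK, ACACA, MVD, and NSDHL with mercury, were therefore not shown to differ between these times.

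Other genes of the pathway were taken from lists chosen with earlier results of these data known, so their counts are no independent evidence. Of 20 further SREBP targets, 6 were higher and 4 lower after 24 h of mercury, beside 13.9% of all genes in each direction, with a median LFC of 0.05. After 24 h of arsenic, 4 were higher and 3 lower, beside 6.54% and 7.75% of all genes. ME1, malic enzyme, which supplies NADPH for lipid synthesis, rose from 25.0 ± 3.91 CPM to 67.1 ± 5.10 CPM (SD, n = 3) after 24 h of mercury (LFC 1.43, SE 0.19, adjusted p = 1.02e-08). The fatty acid elongases ELOVL5 (LFC 0.69, adjusted p = 3.63e-07) and ELOVL6 (LFC 0.59, adjusted p = 0.00177) rose with mercury. After 24 h of arsenic, ME1 (LFC 1.38, adjusted p = 4.94e-08), ELOVL5 (0.41, 0.00391), and ELOVL6 (0.64, 0.00142) were also higher. SLC25A1, the mitochondrial citrate carrier, fell from 23.8 ± 8.67 to 10.3 ± 1.01 CPM with mercury (LFC -1.22, SE 0.25, adjusted p = 0.000112). With arsenic, its LFC of -0.45 was not called (adjusted p = 0.205). The elongases and SLC25A1 were named after their values were seen. Of 12 genes for SREBP processing and sterol sensing, 3 were higher and 2 lower after 24 h of mercury, beside 13.9% of all genes in each direction. SEC24D, a coat protein of vesicles that leave the endoplasmic reticulum, had an LFC of 0.91 (SE 0.32, adjusted p = 0.0238), and PAQR3, a Golgi protein that binds SCAP, of 0.85 (SE 0.33, adjusted p = 0.0468). ERLIN1, of a membrane complex that acts in the degradation of sterol-regulated proteins, fell by 0.43 on the log2 scale with mercury (adjusted p = 0.00606) and was also named after its value was seen. It was lower after 24 h of arsenic too (LFC -0.44, adjusted p = 0.0099).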

How the data were processed

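Per the labels and the study's methods, 3′ mRNA libraries were made from 1321N1 cells, and the authors aligned single-end reads to GRCh38 with STAR 2.7.9a and counted them per gene on the matching strand of GENCODE exons, leaving out reads that overlapped more than 1 gene. The deposited table holds raw counts, whole numbers per gene and library without normalization. Its 92 spike-in sequences had 0 counts.

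edgeR 4.0.16 under R 4.3.3 was run on all 60 libraries with 20 group coefficients, TMM scaling (factors 0.934 to 1.03), and genes kept by filterByExpr (minimum count 10, minimum total 15). Quasi-likelihood p values were adjusted by Benjamini-Hochberg within each comparison over the 12341 genes, and the standard error was taken as the LFC over the root of F. Intervals cover 95%. Values per library are given for SREBF1, SREBF2, and INSIG1 and for the 3 genes with the largest rise and fall in each metal at 12 and 24 h among those called with a mean of at least 20 counts; of each further list, the 2 genes with the largest called change at 24 h are named. Other named genes were added after their values were seen. Genes of these lists that are not named, 1 of them chosen by this rule, are not reported here. The 30 genes and the lists were chosen with earlier results of these data known. The fit was also run on counts simulated from its own model, which checks the code and not the calls in these data. Replicate pairs (60) correlated at 0.962 to 0.981 across genes, and their lowest chi-square per degree of freedom was 2.02, so none was a copy. Same-numbered libraries were not paired: over 45 pairs, deviations from the group means correlated at -0.302 to 0.0954. Alternatives were DESeq2 1.42.0, RLE factors, other filters, the replicate number as a block, separate fits of the libraries compared, an LFC beyond 1 in addition to the adjusted p, leaving out each library, and the non-treated libraries at 1.5 h as reference. The precision is limited by depth (2215276 to 4404609 counts per library), and intervals do not cover variation between independent cultures.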

Additional observations from a re-analysis of the deposited data

Results flagged for a closer look

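The metals were compared directly with each other, and the numbers of the 28 lipid synthesis genes whose levels differed by edgeR's adjusted p are given here as values. Between cadmium and mercury, 14 genes differed at 24 h, 2 at 12 h, and 1 at 6 h (INSIG1), each higher with cadmium. Beside these, 9.7%, 1.48%, and 1.64% of all genes were higher with cadmium and 10.3%, 1.81%, and 2.14% lower. The 14 became 7 in a fit of only the libraries compared. The counts at 12 and 6 h fell to 0 in some fits that left out 1 library. Between arsenic and cadmium, 7 genes differed at 24 h, each lower with arsenic, beside 5.96% of all genes lower and 4.2% higher. The 7 became 4 in a fit of only the libraries compared. Between arsenic and mercury, 3 genes differed at 24 h (DHCR7 and ACAT2 higher and FADS1 lower with arsenic), 1 at 12 h (LSS), 2 at 6 h (MVK and HMGCS1, higher with arsenic), and 1 at 1.5 h (INSIG1, lower with arsenic). At 24, 12, 6, and 1.5 h, 4.59%, 2.42%, 1.41%, and 0.818% of all genes were higher with arsenic, and 6.78%, 4.42%, 3.07%, and 0.737% lower. The effect of mercury differed between 6 and 12 h for 1 gene, LSS, with a difference in LFC of -1.08, beside 0.77% of all genes higher and 1.15% lower. The levels of these genes in the libraries and the values without single libraries are given with the comparisons above.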

How the results depend on the processing

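Of 66 calls of a gene in a comparison, followed through 826 values under alternatives, 653 kept direction and call, 170 kept direction without the call, and 3 changed sign. The 3 arose with non-treated cells at 1.5 h as the reference, an alternative chosen after seeing the data: MVK after 24 h of arsenic (LFC 0.027) and HMGCS1 and SCD after 24 h of mercury (0.037 and 0.067). With that reference, the number of higher genes became 3 (arsenic), 6 (cadmium), and 1 (mercury) at 24 h and 0 for mercury at 12 h. The number of lower genes became 1 with arsenic at 12 and at 24 h, 0 with cadmium at 12 h, and 3 with mercury at 24 h. The reference differs by the time in culture and in its libraries, and which of these moved the counts was not tested. DESeq2 gave 2 lower genes with arsenic at 12 h, 1 lower with arsenic than cadmium at 12 h, 1 lower with cadmium than mercury at 1.5 h, 2 higher with arsenic than mercury at 12 h, 2 higher and 1 lower in non-treated cells at 12 h, 1 lower effect of arsenic from 12 to 24 h and from 6 to 12 h, and 2 lower effects of mercury from 6 to 12 h. The stricter filter gave 2 lower genes with arsenic at 12 h, 1 lower with cadmium than mercury at 1.5 h, and 2 higher with arsenic than mercury at 12 h. With no filter, the counts were 0 lower with mercury at 6 h, 0 lower with arsenic than mercury at 1.5 h, 0 higher with cadmium than mercury at 6 h, 0 higher with mercury at 12 h, and 0 and 2 higher in non-treated cells at 12 and 24 h. RLE factors gave 0 at 12 h in non-treated cells. A fit of only the libraries compared gave 4 lower genes with arsenic than cadmium and 7 higher with cadmium than mercury at 24 h, 2 higher with arsenic than mercury at 12 h and 1 at 6 h with 0 lower at 1.5 h, 1 higher and 1 lower with cadmium than mercury at 1.5 h and 0 at 6 h, and in non-treated cells 1 lower at 12 h and 2 higher at 24 h. Requiring an LFC beyond 1 as well left 2 lower genes with mercury at 12 h (SREBF1 and LSS), 1 at 24 h (SREBF1), 1 higher with cadmium than mercury at 12 h and 1 at 24 h, and 1 lower effect of mercury from 6 to 12 h, with 0 for every other count. With the replicate number as a block, the counts were the same, 11 lower after 24 h of mercury among them, and same-numbered libraries did not deviate together. Leaving out 1 library gave 4 to 7 lower genes with arsenic at 24 h, 0 to 4 with cadmium at 12 h, 0 to 1 with mercury at 6 h, 5 to 9 at 12 h, and 8 to 12 at 24 h. Higher genes were 0 to 1 with mercury at 12 h and with arsenic at 1.5 and at 24 h, and lower ones 0 to 1 with arsenic at 12 h. Between metals, the ranges were 5 to 7 lower with arsenic than cadmium at 24 h, 8 to 13 higher with cadmium than mercury at 24 h and 0 to 2 at 12 h, and 0 to 3 higher with arsenic than mercury at 12 h, with 2 to 4 higher and 0 to 1 lower at 24 h, 1 to 2 higher at 6 h, and 0 to 1 higher and 0 to 1 lower at 1.5 h, and 0 to 1 higher with cadmium than mercury at 6 h. In non-treated cells they were 0 higher and 0 to 1 lower at 12 h and 1 to 4 higher at 24 h (1 without replicate 1 at 1.5 h or replicate 2 at 24 h). For effects between times they were 0 to 1 lower for arsenic from 12 to 24 h, 0 to 1 lower for cadmium from 6 to 12 h, and 0 to 1 higher and 0 to 2 lower for mercury from 6 to 12 h. Low counts limit TM7SF2, HSD17B7, FADS2, and MVD, and CYP51A1 and EBP could not be tested.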

Other observations

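Further lists on what cells do with cholesterol and fatty acids were also chosen with earlier results of these data known. Of 14 targets of the oxysterol receptor LXR and genes of cholesterol efflux, 7 were tested, and 3 were higher and 1 lower after 24 h of mercury, with a median LFC of 0.05, beside 13.9% of all genes called in each direction. ABCA1, which exports cholesterol from cells, was at 5.21 ± 0.650 CPM with mercury and 0.923 ± 0.340 CPM in non-treated cells (SD, n = 3 each; LFC 2.43, SE 0.73, adjusted p = 0.00875 in edgeR). MYLIP, a ubiquitin ligase for lipoprotein receptors, was at 22.8 ± 1.57 CPM with mercury and 5.13 ± 2.80 CPM in non-treated cells (LFC 2.15, SE 0.39, adjusted p = 1.47e-05). ABCA1 was also higher after 12 h of cadmium, at 5.06 ± 2.35 against 0.645 ± 0.292 CPM (LFC 2.85, SE 0.79, adjusted p = 0.013). The non-treated levels of ABCA1 are only a few counts per library at this depth, so the size of both changes is uncertain.

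Of 20 genes for fatty acid oxidation and storage, 15 were tested, and 2 were higher and 4 lower after 24 h of mercury, with a median LFC of -0.13, again beside 13.9% of all genes in each direction. ETFB, a subunit of the electron carrier that serves fatty acid oxidation, fell from 33.1 ± 3.15 to 21.1 ± 2.87 CPM (SD, n = 3 each; LFC -0.65, SE 0.19, adjusted p = 0.00618). ANGPTL4, an inhibitor of lipoprotein lipase, was at 2.58 ± 1.74 CPM with mercury and 0.182 ± 0.158 CPM in non-treated cells, and no fold is given at so few counts.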
